A study of Rattus norvegicus with 6 samples.

Results

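NMDA receptor subunits were followed in primary hippocampal neurons in which cyclin Y (CCNY) was overexpressed or knocked down. The members were the genes listed under the symbols Grin1, Grin2a, Grin2b, Grin2c, Grin2d, Grin3a and Grin3b in the deposited expression table, and all 7 were found among its 17066 genes. They were taken by symbol, with no threshold on a measured value, although the study itself lists Grin2a among genes lowered by the knockdown, which it picked on these same libraries. The neurons were prepared from embryos of Sprague-Dawley rats on embryonic day 18, in cultures that favour neurons over glia. On day 5 or 6 in vitro they received lentivirus carrying EGFP alone (control), CCNY-WT-EGFP (overexpression) or CCNY-shRNA-EGFP (knockdown), and RNA for sequencing was collected on day 14. Each of the 3 conditions has 2 libraries, here called replicates 1 and 2. The knockdown rests on 1 shRNA construct and the control virus carries EGFP, so an effect of expressing an shRNA and the loss of CCNY cannot be told apart. The labels do not say that replicates came from separate cultures, so the p-values below measure only the spread between these libraries, which may be technical.

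The common NMDA receptor is a glutamate-gated cation channel that passes calcium. It conducts when glutamate and a co-agonist are bound and the membrane is depolarized enough to expel magnesium from the pore. Each channel is a tetramer. It holds obligatory GluN1 subunits, encoded by Grin1, which bind the co-agonist glycine or D-serine, together with GluN2 subunits, encoded by Grin2a to Grin2d, which bind glutamate, or with GluN3 subunits, encoded by Grin3a and Grin3b, which bind glycine. In the hippocampus GluN2B predominates early in development and GluN2A increases postnatally, and the balance between them affects the decay of the current and the rules of synaptic plasticity such as long-term potentiation.

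Expression was measured as FPKM, the number of fragments scaled for transcript length and library depth. Levels can be compared between genes only as far as the transcript lengths used are right. The table gives no read counts. The steps between the low FPKM values gave each library's depth relative to EGFP replicate 1, and it ranged from 0.818 to 1.33. Genes that reached an FPKM of 1 numbered 9955 to 10002 per library. Ccny had an FPKM of 43.1 and 42.3 in controls, 108 and 109 with overexpression, and 5.98 and 6.19 after knockdown, in the direction of the labels. All 8 neuronal markers checked, Snap25 and Map2 among them, were expressed in every library, whereas 6 of 7 microglial markers stayed under an FPKM of 1, with Aif1 and Cx3cr1 at 0 throughout.

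Grin1 was by far the most abundant subunit transcript. In the EGFP libraries its FPKM was 203 and 205, followed by Grin2b at 23.5 and 22.2 and Grin2a at 21.5 and 21.0. Grin2d, which encodes a GluN2 subunit found largely in interneurons and in early development, came next at 6.45 and 6.55. Grin3a, whose product lowers calcium permeability when it joins a receptor, stood at 4.14 and 4.94. Grin3b, best known from motor neurons, was close to the floor of 1 used below at 1.68 and 2.13, and Grin2c, a subunit typical of cerebellar granule cells and of some glia, was under it at 0.199 and 0.0729.

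This order of the 7 subunits was the same in 6 of 6 libraries, and no 2 neighbours in it overlapped within any of the 3 conditions. An error in the transcript length used for a gene would be shared by all libraries, so their agreement cannot check the order against it. The closest neighbours were Grin2b and Grin2a, whose EGFP means of 22.9 ± 0.939 and 21.2 ± 0.309 (SD, n = 2) differed 1.08-fold. The next closest, Grin2d and Grin3a, differed 1.43-fold, and Grin1 exceeded Grin2b 8.90-fold. Grin1 accounted for 77.9% and 78.3% of the summed FPKM of all 7 subunits in controls, and its level was 3.92 and 4.11 times that of Grin2a, Grin2b, Grin2c and Grin2d together.

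**Figure D1:**
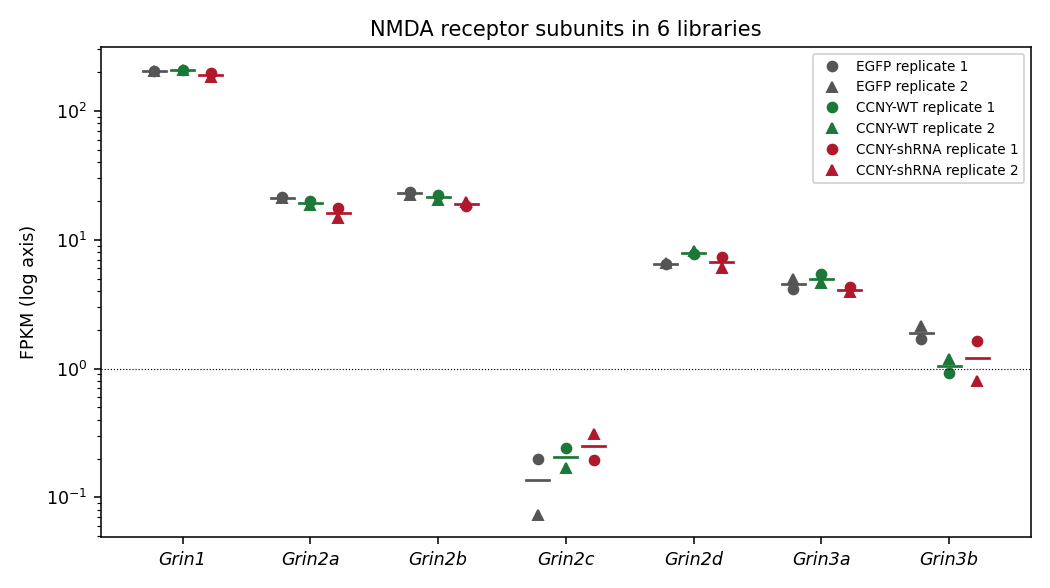
FPKM of each NMDA receptor subunit gene on a log axis, by condition (grey EGFP, green CCNY-WT, red CCNY-shRNA). Circles are replicate 1, triangles replicate 2, short bars the mean of the 2 libraries, and the dotted line marks an FPKM of 1. Grin1 lies between 183 and 209 in all libraries, whereas Grin2c lies between 0.0729 and 0.311.

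The knockdown libraries were compared with the EGFP libraries to ask how subunit transcripts stood when CCNY was reduced. FPKM values were floored to 1, log2-transformed and tested with limma over the 10188 genes that reached 1 in no fewer than 2 libraries. Of the 7 subunits, 6 could be tested and Grin2c could not. None of the 6 passed a limma adjusted p of 0.05 in the knockdown, where 0.746% of all genes tested did. The lowest p-values were those of Grin2a and Grin2b, both lower in the knockdown and both under an unadjusted p of 0.05, a level that 9.36% of all genes reached in that direction.

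Grin2a had the largest difference among the well-expressed subunits. Its FPKM was 21.5 and 21.0 in controls and 17.5 and 14.8 after knockdown. Both knockdown libraries were below both controls, and they were further apart than the controls were from each other. The log2 change was -0.40 (standard error 0.105, 95% interval -0.65 to -0.16, unadjusted p = 0.00503, limma adjusted p = 0.112), equal to 24.4% less transcript. It passed the study's fold threshold of 0.33 on the log2 scale, applied here without a test, as did 7.59% of all tested genes downwards. The study also names the cuffdiff module of Cufflinks for selecting changed genes, which was not rerun here. Since the study listed Grin2a on the strength of these libraries, this value is not independent evidence of a fall. With CCNY-shRNA replicate 2 left out the log2 change was -0.28, and with CCNY-shRNA replicate 1 left out it was -0.53, with a limma adjusted p of 0.0599. Over all alternatives this adjusted p lay between 0.0599 and 0.363.

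Grin2b had an FPKM of 23.5 and 22.2 in controls and of 18.1 and 19.7 after knockdown. Here too the 2 conditions did not overlap, and the lower knockdown library was replicate 1, whereas for Grin2a it was replicate 2. The log2 change was -0.27 (standard error 0.0905, 95% interval -0.48 to -0.06, limma adjusted p = 0.173).

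For the obligatory subunit, Grin1, the FPKM was 203 and 205 in controls and 196 and 183 after knockdown. The knockdown libraries lay below the controls, and replicate 2 was the lower of them. The log2 change was -0.10 (95% interval -0.23 to 0.02, limma adjusted p = 0.357).

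For Grin2d and Grin3a the conditions overlapped. Grin2d was at 6.45 and 6.55 in controls and at 7.33 and 6.08 after knockdown, with 1 knockdown library above and 1 below the controls (log2 change 0.04, 95% interval -0.29 to 0.36, limma adjusted p = 0.920). Without CCNY-shRNA replicate 1 its direction turned, to -0.10. Grin3a, at 4.14 and 4.94 in controls, was at 4.26 and 3.91 after knockdown, and the groups overlapped (-0.15, 95% interval -0.54 to 0.24, limma adjusted p = 0.692).

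The transcripts of Grin3b and Grin2c rested on few fragments. Multiplied by relative depth, their FPKM values were whole multiples of a single step, and the smallest whole numbers that matched for Grin3b were 29 and 40 fragments in controls, 21 and 19 with overexpression, and 23 and 16 after knockdown. The true numbers may be multiples of these. Read as fragments, and with no scaling for depth, the exact 95% Poisson intervals, which cover counting error only, ran from 19.4 to 41.6 and from 28.6 to 54.5 in controls and from 14.6 to 34.5 and from 9.15 to 26.0 after knockdown. In FPKM, Grin3b was 1.68 and 2.13 in controls and 1.63 and 0.805 after knockdown, and the last of these was raised to the floor of 1 for the test. Its log2 change of -0.57 passed the fold threshold, but its limma adjusted p was 0.329 and its 95% interval ran from -1.22 to 0.09. The change was -0.21 without CCNY-shRNA replicate 2, under the fold threshold, and -0.92 without CCNY-shRNA replicate 1. Grin2c had 5 and 2 fragments in controls, 8 and 4 with overexpression, and 4 and 9 after knockdown on the same reading, and no difference in it was tested.

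Among the 6 tested subunits, 5 were lower in the knockdown than in controls, with a median log2 change of -0.21, against 0 over all genes tested, of which 49.8% were lower. For 4 of them (Grin1, Grin2a, Grin2b and Grin3b) the libraries of the 2 conditions did not overlap and lay lower in the knockdown, which was so for 24.5% of all genes. As bulk RNA was measured, fewer cells that express a gene and less RNA per cell cannot be told apart. The summed FPKM of the 8 neuronal markers was 4296 to 4373 in controls and 4379 to 4395 after knockdown, but their median log2 change was -0.02. Tubb3 (0.16) was higher with an unadjusted p under 0.05, as were 9.20% of all genes. Without reaching that level, Snap25 (0.10) and Stmn2 (0.05) were higher. Syt1 (-0.13), Map2 (-0.11), Rbfox3 (-0.04), Eno2 (-0.04) and Nefl (-0.01) were lower, also without reaching it. The 6 excitatory markers summed to 1509 to 1562 and to 1486 to 1495. Most of the excitatory sum was Slc17a7, a vesicular glutamate transporter, at 894 and 936 in controls and 916 and 944 after knockdown. Of the other excitatory markers Neurod6 (log2 change -0.20) and Camk2a (-0.18) were lower and Neurod2 (0.40) higher with an unadjusted p under 0.05, whereas Slc17a6 (-0.16) and Tbr1 (0.26) did not reach it. The 10 interneuron markers summed to 2235 to 2346 and to 1933 to 2103, without overlap, where 24.5% of single genes lay lower in the knockdown without overlap. Most of the interneuron sum was Sst, at 1256 and 1311 in controls and 1043 and 1158 after knockdown. Of the 9 tested, 3 were lower and 0 higher with an unadjusted p under 0.05, against 9.36% and 9.20% of all genes. These were Gad2, the gene of a GABA-synthesizing enzyme (log2 change -0.41, limma adjusted p = 0.0226), Vip (-0.39) and Sst (-0.22). Only Gad2 passed the adjusted threshold. Its call was not followed through the alternatives, in which the genes called in this comparison numbered from 1 (without the trend) to 108 (filter on mean FPKM). Slc32a1 (-0.13), Npy (-0.09), Dlx1 (-0.05), Lhx6 (-0.05), Gad1 (-0.03) and Calb2 (0.06) did not reach an unadjusted p of 0.05. The 7 astrocyte markers summed to 535 to 574 and to 468 to 540, which overlap. The 8 oligodendrocyte markers, with Sox10 at 0, summed to 44.2 to 44.5 and to 37.2 to 40.3, without overlap. The 6 vascular markers, with Cldn5 at 0, summed to 64.0 to 71.8 and to 62.8 to 66.5. The part of these shifts in the subunit values was not tested.

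In the CCNY-WT libraries the question was whether more CCNY moved the same transcripts. None of the 6 tested subunits passed a limma adjusted p of 0.05, where 0.00982% of all genes, Ccny alone, did. Of the 6, Grin3b had an unadjusted p under 0.05, which 3.0% of all genes reached downwards. Its FPKM of 0.918 and 1.18 with overexpression lay below the EGFP values of 1.68 and 2.13, and the first was raised to the floor of 1 (log2 change -0.80, standard error 0.283, 95% interval -1.45 to -0.14, unadjusted p = 0.0228, limma adjusted p = 0.725). It passed the fold threshold, as did 3.76% of all genes downwards. With log2(FPKM + 1) in place of the floor this change was -0.50, and with log2(FPKM + 0.1) it was -0.80. With quantile normalization it was -0.78.

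Grin2d had the largest difference upwards. Its FPKM was 6.45 and 6.55 in controls and 7.81 and 8.11 with overexpression, without overlap and with replicates close together. The log2 change was 0.29 (standard error 0.141, 95% interval -0.04 to 0.62, limma adjusted p = 0.761), just under the study's fold threshold of 0.3. Libraries that did not overlap in this direction were found for 20.3% of all genes.

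Grin2a was at 20.2 and 18.6 with overexpression and thus below both controls, as were 19.2% of all genes, by a log2 change of -0.13 (95% interval -0.37 to 0.11, limma adjusted p = 0.849). Grin2b, at 22.4 and 20.4, overlapped the controls (-0.10, 95% interval -0.31 to 0.11, limma adjusted p = 0.875). Grin1 was at 209 and 207 (0.03, 95% interval -0.10 to 0.16, limma adjusted p = 0.938), just above the controls. Grin3a, at 5.37 and 4.58, overlapped the controls as well (0.13, 95% interval -0.26 to 0.53, limma adjusted p = 0.911). The median log2 change of the 6 was -0.03, against 0.00 over all genes tested.

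**Figure D2:**
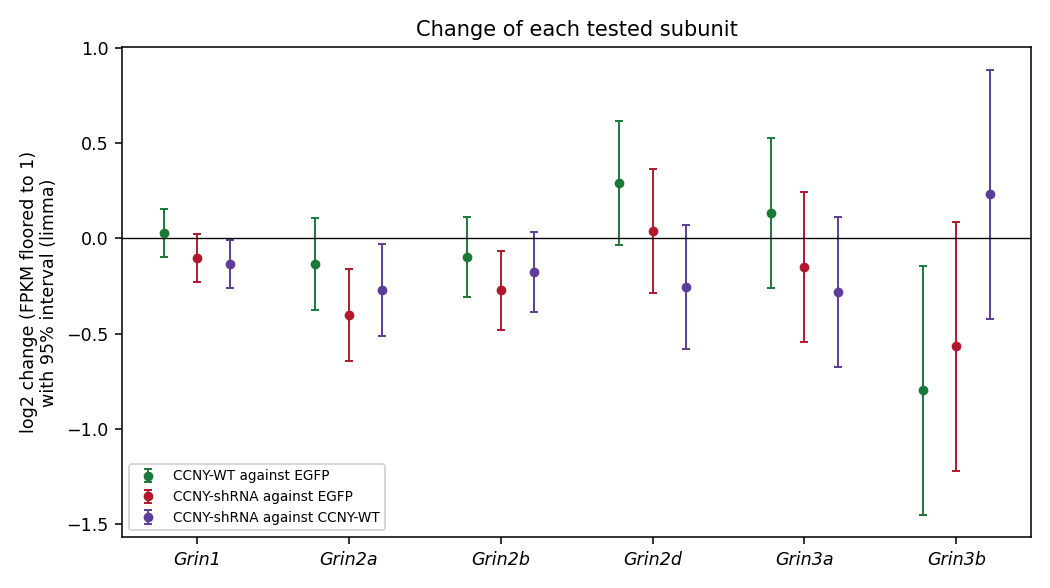
Log2 change of the 6 tested subunits in each comparison (green CCNY-WT against EGFP, red CCNY-shRNA against EGFP, violet CCNY-shRNA against CCNY-WT), with FPKM floored to 1. Points are limma estimates from 2 libraries a condition and bars their 95% intervals, before any adjustment over genes; in red, the intervals of Grin2a (-0.65 to -0.16) and Grin2b (-0.48 to -0.06) lie below 0.

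The knockdown and overexpression libraries were also compared directly. None of the 6 subunits passed the adjusted threshold (0.216% of all genes did), and Grin1 and Grin2a had an unadjusted p under 0.05, as did 7.12% of all genes in that direction. Grin2a was lower after knockdown by a log2 change of -0.27 (95% interval -0.51 to -0.03, limma adjusted p = 0.368) and Grin1 by -0.13 (95% interval -0.26 to -0.01, limma adjusted p = 0.388). For 5 of the 6, all but Grin3b, the knockdown libraries lay below the overexpression libraries without overlap, as did 21.9% of all genes. This comparison and the one with EGFP use the same knockdown libraries, so the values in them are not separate evidence.

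The balance of Grin2a to Grin2b was then read in each library, as a measure of the subunit switch. The ratio of their FPKM values was 0.912 and 0.946 in controls, 0.90 and 0.915 with overexpression, and 0.963 and 0.747 after knockdown. The knockdown libraries thus had both the highest and the lowest ratio of the 6, and the conditions overlapped in each comparison. Mean ratios were 0.929 ± 0.0246 (SD, n = 2) in controls, 0.907 ± 0.0101 with overexpression and 0.855 ± 0.153 after knockdown. The mean log2 ratio differed from that of EGFP by -0.13 after knockdown (two-sided exact permutation test, p = 1) and by -0.03 with overexpression (exact p = 0.667). With 2 libraries against 2 this test cannot give a p below 0.333. A limma fit of every gene relative to Grin2b gave Grin2a an adjusted p of 0.495 after knockdown and of 0.967 with overexpression. All genes in that fit share the error of Grin2b, so their spreads are not independent and its p-values cannot decide about the ratio. Without CCNY-shRNA replicate 2 the difference in the knockdown turned to 0.0528, so its direction rests on that library.

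Summed over Grin2a, Grin2b, Grin2c and Grin2d, the GluN2 transcripts came to an FPKM of 51.7 and 49.9 in controls, 50.6 and 47.3 with overexpression, and 43.1 and 40.9 after knockdown. Both knockdown sums were below all others, but they are mostly Grin2a and Grin2b, whose values are given above. Of single genes, 24.5% lay lower in the knockdown without overlap against EGFP and 21.9% against CCNY-WT. Grin1 stood at 3.92 and 4.11 times the GluN2 sum in controls, at 4.14 and 4.37 times with overexpression, and at 4.55 and 4.48 times after knockdown. Grin2d made up 12.5% and 13.1% of the sum in controls, 15.4% and 17.1% with overexpression, and 17.0% and 14.9% after knockdown, so its share was lowest in the controls. Each of these sums and shares is a single value per library and was not tested.

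**Figure D3:**
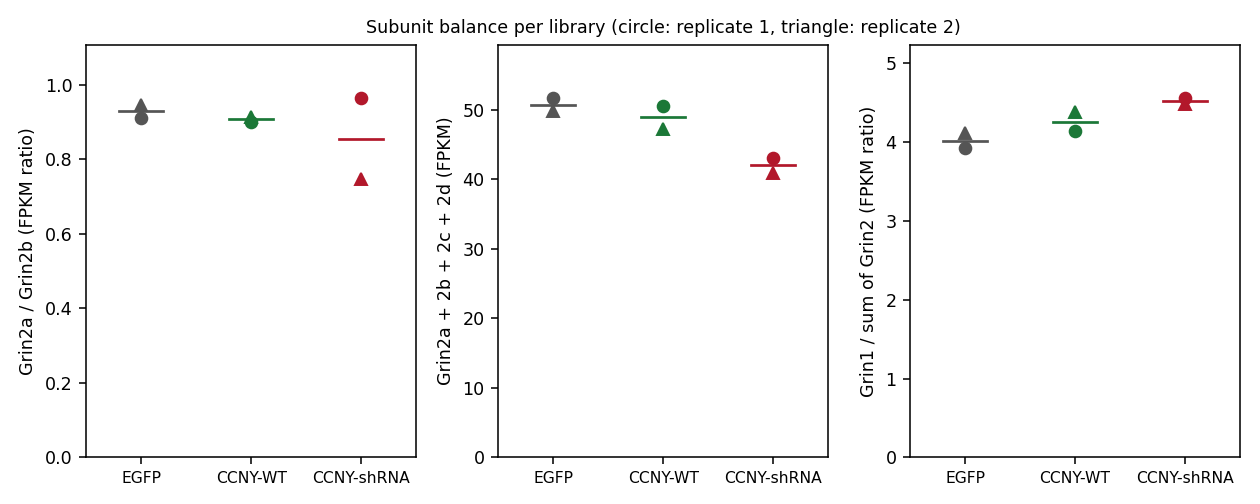
Subunit balance per library, by condition: the ratio of Grin2a to Grin2b FPKM (left), the summed FPKM of the GluN2 genes (middle) and the ratio of Grin1 to that sum (right), on axes that start at 0. Circles are replicate 1, triangles replicate 2 and bars the mean of both; the knockdown replicates, at 0.963 and 0.747, span the other libraries in the left panel.

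Genes that act with the receptor were read from lists written from general knowledge. Of 112 such genes 109 were in the table and 106 could be tested. In the knockdown 1 rose (Nsmf) and 1 fell (Prkca) past the adjusted threshold, which 0.746% of all genes passed. At that share, 0 calls in a short list say little about it. With an unadjusted p under 0.05, 11 were higher and 18 lower, which 9.20% and 9.36% of all genes were. The median log2 change of the 106 was -0.02. In CCNY-WT 0 passed the limma adjusted threshold, with 6 higher and 4 lower at an unadjusted p under 0.05, against 3.83% and 3.0% of all genes.

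Nothing in the supply of the agonists passed. In the knockdown, 0 of 10 genes passed the adjusted threshold. At an unadjusted p under 0.05, 1 was higher and 3 lower, against 9.20% and 9.36% of all genes. Slc1a2, the main glial glutamate transporter, was at 83.7 and 82.9 in controls, 86.7 and 78.1 with overexpression, and 65.2 and 68.6 after knockdown (log2 change in the knockdown -0.32, limma adjusted p = 0.0768). It is also an astrocyte marker, and 2 of the 7 astrocyte markers, Slc1a2 and Slc1a3, had an unadjusted p under 0.05 and were lower in the knockdown, as were 9.36% of all genes. Of the others, Gja1 (log2 change -0.20), Gfap (-0.13) and Aldoc (-0.11) were lower and Aqp4 and S100b (0.04 each) higher, without reaching that level.

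Among 20 tested scaffold, transport and surface partners, 0 passed the adjusted threshold in the knockdown, and the median log2 change was -0.05. At an unadjusted p under 0.05, 3 were higher and 4 lower, against 9.20% and 9.36% of all genes. Dlgap3, which links PSD-95 to Shank proteins, came closest, with 83.0 and 82.1 in controls, 92.2 and 94.8 with overexpression, and 102 and 101 after knockdown (0.29, limma adjusted p = 0.0527). Shank3, a master scaffold of the postsynaptic density, was at 46.3 in both controls, at 56.0 and 54.8 with overexpression and at 55.4 and 53.3 after knockdown (0.23, limma adjusted p = 0.0990). Both genes lay above the controls in both conditions, which share the same EGFP libraries.

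Prkca fell in the knockdown and was the only one of 24 kinases and phosphatases to pass the adjusted threshold. It encodes protein kinase C alpha, a calcium-dependent kinase, and its FPKM was 90.0 in both controls, 82.9 and 87.0 with overexpression and 62.5 and 59.9 after knockdown (log2 change -0.56, standard error 0.0556, limma adjusted p = 0.0112). It was also lower after knockdown than with overexpression (-0.47, limma adjusted p = 0.0252), a call that held in 7 of 15 alternatives, with limma adjusted p-values of 0.0197 to 0.269. It was lost on leaving out EGFP replicate 1 (0.0840) or 2 (0.0907), CCNY-WT replicate 1 (0.161) or 2 (0.269), or CCNY-shRNA replicate 2 (0.0675). The study lists Prkca among genes chosen on these libraries, so its fall is not independent evidence. Its call in the knockdown held in 11 of 15 alternatives and was lost, for example, without EGFP replicate 1 (limma adjusted p = 0.0856) or without EGFP replicate 2 (0.142).

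Nsmf rose in the knockdown. It encodes Jacob, a protein that carries signals from synaptic NMDA receptors to the nucleus. Its FPKM was 239 and 236 in controls, 311 and 315 with overexpression, and 306 and 298 after knockdown, so the libraries of both conditions stood well above the controls they share. The log2 change was 0.35 after knockdown (standard error 0.0506, limma adjusted p = 0.0425) and 0.40 with overexpression (limma adjusted p = 0.0964). The call in the knockdown held in 7 of 15 alternatives and was lost, among others, without EGFP replicate 1 (limma adjusted p = 0.172), EGFP replicate 2 (0.279), CCNY-WT replicate 1 (0.107) or CCNY-WT replicate 2 (0.105). It was the only one of 13 calcium signal relays to pass. Rasgrf1, a calcium-activated Ras exchange factor that binds GluN2B, was at 42.1 and 45.7 in controls, 41.3 and 40.3 with overexpression, and 34.9 and 36.4 after knockdown (-0.30, limma adjusted p = 0.0855).

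Of 11 tested target genes that neuronal activity induces, 0 passed the limma adjusted threshold in the knockdown. At an unadjusted p under 0.05, which 9.20% of all genes reached upwards and 9.36% downwards, 0 were higher and 1 was lower. That gene was Nr4a1, an orphan nuclear receptor, at 14.2 and 14.7 in controls, 12.3 and 10.8 with overexpression, and 11.2 and 9.46 after knockdown (-0.49, limma adjusted p = 0.105), and it too was listed by the study on these libraries. Npas4, a transcription factor induced by calcium entry, was at 11.3 and 13.6 in controls and 19 and 13.5 after knockdown, with overlap (0.38, limma adjusted p = 0.332). Bdnf, the remaining gene of this list, was listed at 0 in all libraries.

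The 7 tested transcription regulators of subunit genes had the highest median of the lists in the knockdown, 0.26, against 0 over all genes tested. Of the 7, 1 was lower and 6 higher, where 49.8% of all genes were lower. None passed the limma adjusted threshold, and 2 were higher with an unadjusted p under 0.05, as were 9.20% of all genes. Neurod2, a neuronal helix-loop-helix factor, was at 34.0 and 29.5 in controls and 41.7 and 41.6 after knockdown (0.40, limma adjusted p = 0.0819). Rcor1, the corepressor of REST, was at 4.98 and 5.12 in controls, 5.85 and 7.17 with overexpression, and 7.43 and 6.48 after knockdown (0.46, limma adjusted p = 0.181). Rest itself never reached an FPKM of 1 and was not tested.

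As the GluN2B to GluN2A switch is a mark of maturation, genes that rise or fall as neurons mature were read beside it. Of 11 tested genes that rise with maturation, 4 were higher and 7 lower in the knockdown, with a median log2 change of -0.01, and of 12 tested genes of immature neurons 4 were higher and 8 lower, with a median of -0.05. None of either list passed the limma adjusted threshold. At an unadjusted p under 0.05, 2 of the first were lower, and 1 of the second was higher and 3 were lower. Of all genes, 9.20% were higher and 9.36% lower at that level. Camk2a, the alpha subunit of CaM kinase II, was at 376 and 405 in controls and 361 and 327 after knockdown (-0.18, limma adjusted p = 0.214). Syn1, a synaptic vesicle protein, was at 326 and 316 in controls, 301 and 295 with overexpression, and 298 and 287 after knockdown (-0.13, limma adjusted p = 0.236). From the immature list, Dpysl5 was at 222 and 220 in controls and 197 and 185 after knockdown (-0.21, limma adjusted p = 0.112), and Dlg3, the gene of SAP102, an early postsynaptic scaffold, at 53.0 and 55.3 in controls and 48.5 and 44.2 after knockdown (-0.23, limma adjusted p = 0.144).

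**Figure D4:**
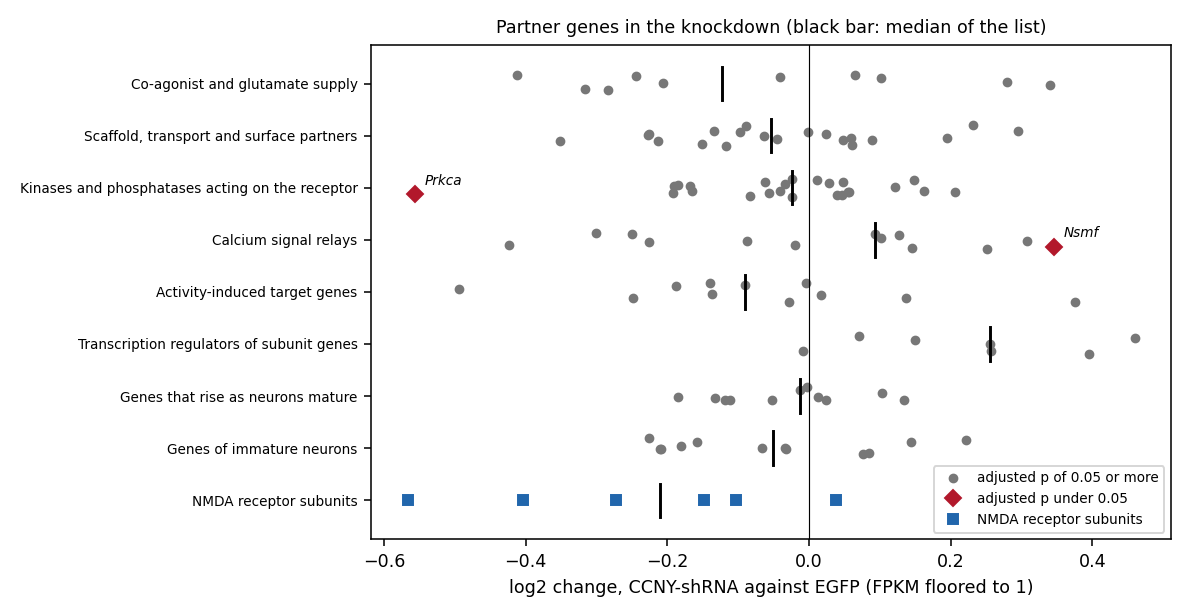
Log2 change in CCNY-shRNA against EGFP (FPKM floored to 1) of each tested partner gene, by role, with the 6 tested subunits as blue squares in the last line. Black bars are the median of each list and red diamonds mark an adjusted p under 0.05, which only Prkca (-0.56) and Nsmf (0.35) reached; the vertical scatter within a line has no meaning.

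Finally, the genes whose levels followed each main subunit most closely over the 6 libraries were listed, by Pearson's r of log2 FPKM across 10187 other genes. For Grin2a these were Pcm1 (r = 0.997), which encodes a centriolar satellite protein, Slc52a2 (0.993), a riboflavin transporter, Vps13b (0.990), Cpd (0.988) and Dpysl5 (0.987). Pcm1 ran from 42.1 and 41.9 in controls through 41.3 and 39.0 with overexpression to 37.9 and 33.8 after knockdown, the same order of libraries as Grin2a. For Grin2b they included Ext2 (0.988), Smarca2 (0.982), Sec62 (0.979) and Ankrd50 (0.975), and for Grin1 they were Zfp266 (0.992), Yipf2 (0.991), Etnk2 (0.990), Pygb (0.987) and Yipf6 (0.985). With 6 libraries that share 3 conditions, high values are common: 374 genes had an r over 0.9 with Grin2a, 166 with Grin2b and 200 with Grin1. Between the subunits themselves r was 0.87 for Grin1 and Grin2a, 0.76 for Grin2a and Grin2b, and -0.15 for Grin2b and Grin2d.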

How the data were processed

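RNA-seq was performed by the authors in 150-bp paired-end reads, which were mapped to rn4 with TopHat 2. The authors computed the deposited FPKM values, 1 per gene and library, with Cufflinks (submitters' notes: version 2.2.1). Which gene annotation was used, and whether libraries were scaled, is not given in the sources used here. Because the values are not counts, FPKM was floored to 1 and log2-transformed, and limma 3.58.1 in R 4.3.3 (lmFit, contrasts.fit, eBayes with a trend) was fitted to the 6 libraries on genes reaching 1 in at least 2 of them, with Benjamini-Hochberg adjustment over all genes and a threshold of 0.05. A fold change on this scale understates that of genes near the floor. The fit was tested on simulated data. Samples were grouped by their titles. Relative depth was the most common ratio of low FPKM values between a library and EGFP replicate 1. With that depth applied, 97.0% of 772 genes with FPKM under 0.3 matched whole fragments within 0.03 (2.46% after a random shift of each value). Grin3b, with a higher FPKM, was not among them. Absolute depth is unknown. Members and lists were chosen with earlier results of these data known. Named were the subunits, Ccny, in each list the 2 genes with the lowest p in the knockdown and any gene called, and the 5 genes most like Grin1, Grin2a and Grin2b; a few genes that this rule names are not reported here. Markers, Bdnf and Rest were named outside this rule after their values were seen. Alternatives covered the offset, the filter, the scaling, the spread, a replicate block and leaving out each library. Tables were handled with Python 3.11.15.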

Additional observations from a re-analysis of the deposited data

How the results depend on the processing

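The log2 changes of the 6 tested subunits in 3 comparisons gave 18 results and 270 alternative values. None passed an adjusted p of 0.05, the lowest being 0.0599, and 2 turned their direction. These were Grin2d in CCNY-shRNA against EGFP (-0.10 to 0.17 with each library left out) and Grin3b in CCNY-shRNA against CCNY-WT (-0.12 to 0.58), both turned by leaving out CCNY-shRNA replicate 1. The log2 Grin2a to Grin2b ratio ranged from -0.31 to 0.0528 in CCNY-shRNA against EGFP and from -0.28 to 0.0866 against CCNY-WT with each library left out, turned by CCNY-shRNA replicate 2. Genes called in CCNY-shRNA against EGFP, 76 in all, were 2 without a filter, 1 without the trend, 39 with the replicate block, 25 from the 4 libraries compared, and 1 to 86 with each library left out (1 without EGFP replicate 1 or 2, 18 and 26 without CCNY-WT replicate 1 or 2, 86 and 39 without CCNY-shRNA replicate 1 or 2). Against CCNY-WT the 22 calls were, in the same order, 2, 1, 18, 8 and 1 to 22, with 1 without either CCNY-WT library and 8 without either EGFP library. Other alternatives gave more calls in both knockdown comparisons. Against EGFP they were 108 with the filter on mean FPKM, 105 with upper quartile scaling, 87 with quantile normalization, 85 with log2(FPKM + 0.1) and 82 with log2(FPKM + 1). Against CCNY-WT they were, in that order, 30, 23, 27, 28 and 32. In CCNY-WT against EGFP the 1 call became 3 with log2(FPKM + 1) or the filter on mean FPKM, 2 with upper quartile scaling and 5 from the 4 libraries compared. Of partner genes, the 2 calls in CCNY-shRNA became 3 with the filter on mean FPKM or upper quartile scaling (2 higher and 1 lower), 0 without a filter or trend, 1 with the replicate block or the 4 libraries, and 0 to 2 with each library left out. Against CCNY-WT the 1 call became 0 without a filter or trend or from the 4 libraries, and 0 to 1 with each library left out, and the 0 calls in CCNY-WT against EGFP became 1 from the 4 libraries. Replicate differences were hardly correlated between conditions (0.04 to 0.05). This cannot show whether libraries with the same replicate number shared a culture or batch. The block changed no call of a subunit but ended that of Nsmf. With a library left out, the lone library of its condition was assumed to vary like the others. Grin2c stayed under the filter. Without a filter all its values were raised to the floor of 1, so no change in it could appear. The unknown depth limits Grin2c and Grin3b most; the cause of these shifts was not tested.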
